A study of Saccharomyces cerevisiae with 6 samples.

Results

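The 10 genes described here encode the regulators of general amino acid control in budding yeast, Saccharomyces cerevisiae: GCN1, GCN2, GCN3, GCN4, GCN20, GCD1, GCD2, GCD6, GCD7 and SUI2. They were found by their gene symbols in the array's annotation, and each of the 10 had exactly 1 probe set, out of 5449 S. cerevisiae genes measured by 5498 probe sets. The series compared cells carrying a deletion of VPS4 (3 arrays, replicates 4, 5 and 6) with wild type cells (3 arrays, replicates 3, 4 and 6), all in mid-log growth at 26 °C in YNB synthetic medium with the amino acids the strains required. Vps4 is the ATPase that takes ESCRT-III off endosomal membranes so that multivesicular bodies can deliver membrane proteins to the vacuole for breakdown, and the series title concerns ESCRT mutants and the recycling of amino acids by that route. Total RNA was labelled with biotin from the 3′ end and measured on Affymetrix expression arrays, with levels given as log2 GCRMA values per probe set. The labels name neither the strain background nor the cultures behind the replicates, so p-values cover the spread between these 6 samples alone, and that spread may be technical.

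General amino acid control is the response of yeast to a shortage of amino acids. Uncharged tRNA activates the kinase Gcn2, which needs Gcn1 and Gcn20 on the ribosome, and Gcn2 phosphorylates the alpha subunit of the initiation factor eIF2, the product of SUI2. Phosphorylated eIF2 holds back its own exchange factor eIF2B, the complex of Gcn3, Gcd7, Gcd1, Gcd2 and Gcd6. General protein synthesis then slows, while ribosomes pass over the later short upstream reading frames of the GCN4 mRNA and translate Gcn4. Gcn4 is a transcription factor of amino acid biosynthesis genes. Much of this control acts on protein activity and on translation, and the arrays measured only mRNA. In RNA from a whole culture, less mRNA in every cell and fewer cells carrying the mRNA cannot be told apart.

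The VPS4 level matched the label on each array. VPS4 was not above background on any deletion array and was at least 760.5-fold lower there than in wild type (limma, Benjamini-Hochberg adjusted p = 1.30e-07), where background is percentile 95 of the probe sets that the same array carries for another yeast. Those background levels lay between 1.82 and 1.92 log2. The 4 genes that mark alpha cells had a median per array of 12.21 to 12.34 log2 in the deletion and 12.64 to 12.89 in wild type, and the 7 genes that mark a cells had 3.93 to 4.09 in the deletion and 4.48 to 4.82 in wild type. Wild type replicate 3 differed by over 1 log2 from the mean of the other wild type arrays in 73 probe sets, 49 lower and 24 higher. The same count was not made for any other array. Leaving out wild type replicate 3 raised the share of all probe sets with a limma adjusted p under 0.05 from 4.27% to 22.0%. The differences of the 10 regulators and most counts and medians of the gene lists are therefore given with and without it.

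None of the 10 regulators passed the test between genotypes with all 6 arrays (limma, Benjamini-Hochberg over 5498 probe sets, adjusted p under 0.05), against 4.27% of all probe sets, made up of 2.82% higher and 1.46% lower in the deletion. At an unadjusted p under 0.05, 3 of the 10 were lower and 0 higher, against 7.80% lower among all probe sets. Each difference is the deletion mean minus the wild type mean in log2 units. The differences ran from −0.17 for GCN2, a level 11.3% lower in the deletion, to 0.019 for GCN4. Once wild type replicate 3 was left out, GCD6 and GCN20 passed the test as lower, 2 of the 10, and 0 passed as higher. The shares of all probe sets in that fit were 10.1% lower and 11.9% higher. The differences of GCD6 and GCN20 were −0.17 and −0.11 there, against −0.16 and −0.13 with all 6 arrays.

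**Figure D1:**
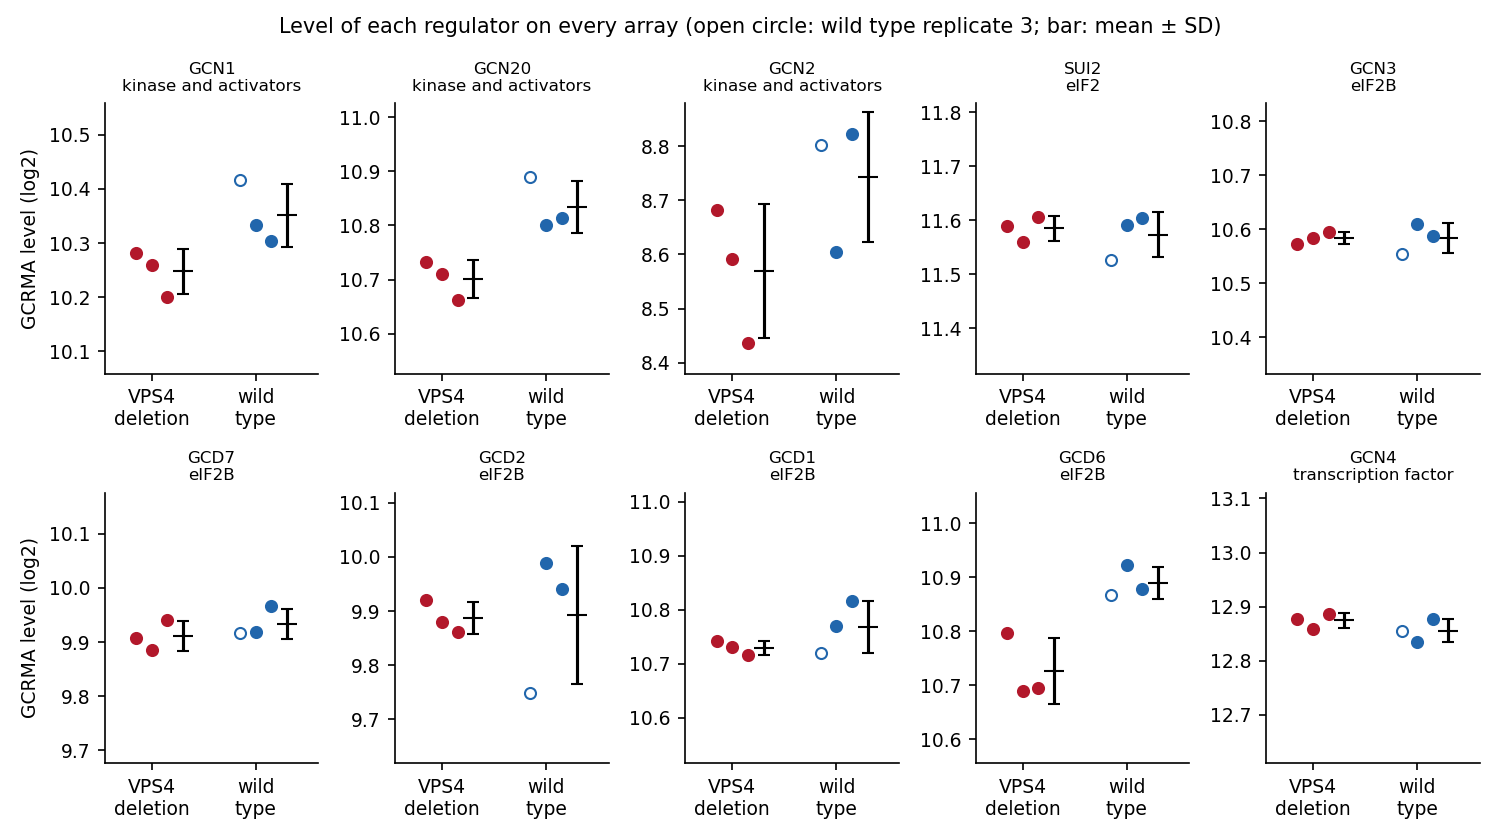
Level of each regulator (log2 GCRMA value, vertical axes of equal span) on the 3 VPS4 deletion arrays (red, left) and the 3 wild type arrays (blue, right), with wild type replicate 3 as an open circle and the mean ± SD (n = 3) beside each group. The groups do not overlap for GCN1, GCN20 and GCD6, while GCN4 stays between 12.83 and 12.89 on all 6 arrays.

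The kinase Gcn2 and its activators stand first in the pathway, and the differences of all 3 genes were below 0. Deletion values are given here in the order of replicates 4, 5 and 6 and wild type values in the order of replicates 3, 4 and 6. GCN1 (YGL195W), the large ribosome-bound protein through which Gcn2 is activated, stood at 10.28, 10.26 and 10.20 log2 in the deletion arrays and at 10.42, 10.33 and 10.30 in the wild type arrays. Every deletion array was lower than every wild type array, and the gap between the closest arrays was smaller than the spread within either genotype. The means were 10.25 ± 0.04 in the deletion and 10.35 ± 0.06 in wild type (SD, n = 3 each), a difference of −0.10 with a 95% confidence interval of −0.20 to −0.0042 (limma adjusted p = 0.270). Without wild type replicate 3, which was the highest of the 6 arrays for this gene, the difference was −0.072 (limma adjusted p = 0.156).

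GCN20 (YFR009W) encodes the ABC-type ATPase that partners Gcn1. Its levels were 10.73, 10.71 and 10.66 log2 in the deletion arrays and 10.89, 10.80 and 10.81 in the wild type arrays. The groups again did not overlap, and replicate 3 was again the highest wild type array, 0.083 above the mean of the other wild type arrays. The difference was −0.13 ± 0.04 (SE), with an interval of −0.22 to −0.047 (limma adjusted p = 0.105), or a level 8.81% lower in the deletion. GCN20 passed the test in the fit without wild type replicate 3, at −0.11 ± 0.03 (limma adjusted p = 0.0257). It did not pass in any of the 5 fits that left out another array, where the highest limma adjusted p was 0.331.

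GCN2 (YDR283C), the kinase itself, had the widest range over the 6 arrays among the 10 regulators, 0.39 log2. It stood at 8.68, 8.59 and 8.44 log2 in the deletion arrays and at 8.80, 8.61 and 8.82 in the wild type arrays. Wild type replicate 4 lay among the deletion arrays, so the groups overlapped. The difference of −0.17 had the largest standard error of the 10 genes, 0.09, and an interval of −0.38 to 0.03 (limma adjusted p = 0.368). In fold terms the interval runs between 0.769 and 1.02 times the wild type level. Without wild type replicate 3 the difference was −0.14 (limma adjusted p = 0.252).

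SUI2 (YJR007W) encodes the alpha subunit of eIF2, the substrate of Gcn2. It stood at 11.59, 11.56 and 11.61 log2 in the deletion arrays and at 11.53, 11.59 and 11.60 in the wild type arrays. The deletion arrays lay inside the range of the wild type arrays but for replicate 6, the highest of the 6 arrays. The difference was 0.011, with an interval of −0.058 to 0.081 (limma adjusted p = 0.895), or 0.960 to 1.06 times the wild type level. It was −0.012 without wild type replicate 3, the lowest of the 6 arrays for SUI2, and −0.0074 when each array was centred on its median.

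Of the 5 subunits of eIF2B, Gcn3, Gcd7 and Gcd2 form the regulatory subcomplex, which senses phosphorylated eIF2. GCN3 (YKR026C), the alpha subunit and the one that cells can lack, stood at 10.57, 10.58 and 10.60 log2 in the deletion arrays and at 10.55, 10.61 and 10.59 in the wild type arrays. The deletion arrays all lay within the wild type range, and the difference was 0.00017 with an interval of −0.068 to 0.068 (limma adjusted p = 0.999). Quantile normalization and median centring turned its sign, to −0.00093 and −0.019, as did leaving out wild type replicate 3, to −0.014. GCD7 (YLR291C), the beta subunit, stood at 9.91, 9.89 and 9.94 log2 in the deletion arrays and at 9.92, 9.92 and 9.97 in the wild type arrays, which overlapped. Its difference was −0.022, with an interval of −0.10 to 0.059 (limma adjusted p = 0.807), and it was −0.031 without wild type replicate 3 (limma adjusted p = 0.574).

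GCD2 (YGR083C), the delta subunit, was the regulator that wild type replicate 3 touched most. It stood at 9.92, 9.88 and 9.86 log2 in the deletion arrays and at 9.75, 9.99 and 9.94 in the wild type arrays. Replicate 3 was 0.22 below the mean of the other wild type arrays and below every deletion array, while the other wild type arrays were above every deletion array. The difference was −0.0061, with an interval of −0.16 to 0.15 (limma adjusted p = 0.978), and it was 0.0031 after quantile normalization. Without replicate 3 it was −0.078 ± 0.03 (SE), which did not pass either (limma adjusted p = 0.132).

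Gcd1 and Gcd6 form the catalytic subcomplex, which exchanges GDP for GTP on eIF2. GCD1 (YOR260W), the gamma subunit, stood at 10.74, 10.73 and 10.72 log2 in the deletion arrays and at 10.72, 10.77 and 10.82 in the wild type arrays. The groups overlapped through wild type replicate 3, and the difference of −0.039 had an interval of −0.12 to 0.04 (limma adjusted p = 0.629). Without that array it was −0.063, with an interval of −0.12 to −0.0040, and did not pass (limma adjusted p = 0.123). Over the 6 fits that each left out 1 array it ran from −0.063 to −0.015. GCD6 (YDR211W), the epsilon subunit that holds the catalytic site, stood at 10.80, 10.69 and 10.69 log2 in the deletion arrays and at 10.87, 10.92 and 10.88 in the wild type arrays. Every deletion array was lower than every wild type array. The means were 10.73 ± 0.06 in the deletion and 10.89 ± 0.03 in wild type (SD, n = 3 each), so that the level was 10.6% lower in the deletion.

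GCD6 had the smallest p of the 10 regulators. Its difference of −0.16 ± 0.04 (SE) had an interval of −0.25 to −0.07 and did not pass the test with all 6 arrays (limma adjusted p = 0.0710). Without wild type replicate 3 it was −0.17 ± 0.04 and passed (limma adjusted p = 0.00796). In the 5 fits that left out another array it did not pass, with limma adjusted p up to 0.266. In all 6 of these fits the difference lay between −0.20 and −0.14. Whether GCD6 differed from the other eIF2B subunits in its response to the deletion was not tested.

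**Figure D2:**
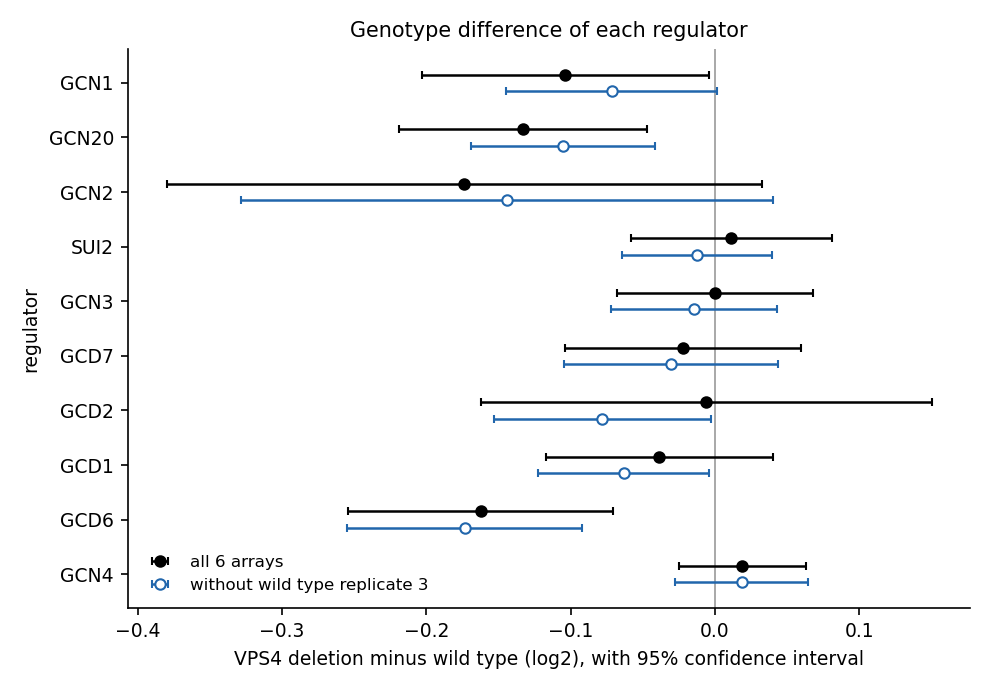
Difference between VPS4 deletion and wild type for each regulator (log2, horizontal axis) with its 95% confidence interval from limma, for all 6 arrays (filled, black) and without wild type replicate 3 (open, blue). The intervals of GCN1, GCN20 and GCD6 lie below 0 with all 6 arrays, and GCN4 has the narrowest interval, −0.025 to 0.063.

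GCN4 (YEL009C), the transcription factor at the end of the pathway, had the smallest range over the arrays of the 10 regulators, 0.053 log2. It stood at 12.88, 12.86 and 12.89 log2 in the deletion arrays and at 12.85, 12.83 and 12.88 in the wild type arrays. The groups overlapped. The means were 12.87 ± 0.01 in the deletion and 12.86 ± 0.02 in wild type (SD, n = 3 each). The difference of 0.019 ± 0.02 (SE) had an interval that corresponds to 0.983 to 1.04 times the wild type level (limma adjusted p = 0.679). It was 0.018 without wild type replicate 3, 0.0081 without wild type replicate 4 and 4.63e-05 when each array was centred on its median. The translation of this mRNA, where the pathway acts, was not measured.

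Among 5338 other probe sets above background on all 6 arrays, the profiles closest to that of GCN4 were those of 3 genes. They were AIM25, UBC4, a ubiquitin-conjugating enzyme, and ADH1, the main alcohol dehydrogenase of fermentation. Likeness was the root mean square distance between profiles over the 6 arrays, each centred on its own mean. It was 0.0086 log2 for AIM25, 0.0088 for UBC4 and 0.0088 for ADH1. After quantile normalization the distances were 0.016, 0.013 and 0.017, with UBC4 the closest of these 3. Closeness of this kind was common, since 1442 probe sets lay within 0.05 of GCN4 and the median distance was 0.077. All of these profiles were nearly flat. The range over the 6 arrays was 0.053 log2 for GCN4, 0.057 for AIM25, 0.066 for UBC4 and 0.071 for ADH1.

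As a set, the regulators spread over a narrower span than all tested probe sets. Their median level per array was 10.63 to 10.70 log2, against 9.12 to 9.15 over all tested probe sets. Spread was not compared at matched levels. Their median range over the 6 arrays was 0.16 log2, against 0.22 over all tested probe sets, and their median SD within a genotype was 0.039, against 0.072. With wild type replicate 3 left out, the median range was 0.11, against 0.16, and the median SD was 0.028, against 0.045. Of the lists described below, the initiation genes had a smaller median range with all 6 arrays, 0.080. It was 0.17 for the genes acting on Gcn2, 0.18 for Gcn4 turnover and coactivators and 0.24 for Gcn4 targets. Without wild type replicate 3 the median range was 0.114 for the regulators and 0.115 for the genes acting on Gcn2, almost the same. In those arrays it was 0.071 for the initiation genes, 0.17 for Gcn4 turnover and coactivators and 0.13 for Gcn4 targets. The regulators' median difference was −0.030, against −0.0019 over all tested probe sets, and the median size of a difference was 0.030, against 0.061. Leaving out wild type replicate 3 moved the regulators' median difference to −0.067, against −0.0036 over all tested probe sets, and brought the median sizes close together, at 0.067 and 0.073. Of the 10 differences, 7 were below 0, against 2812 of 5498 among all tested probe sets. In the fit without replicate 3, 9 were below 0, against 2836 of 5498. GCN1, GCN2, GCN20 and GCD6 lay below the lower quartile of all differences, −0.061, and 0 regulators lay above the upper quartile, 0.062. Without replicate 3 those below the lower quartile, −0.076, were GCN2, GCN20, GCD2 and GCD6, and again 0 lay above the upper quartile. These counts describe the 10 genes and were not tested.

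**Figure D3:**
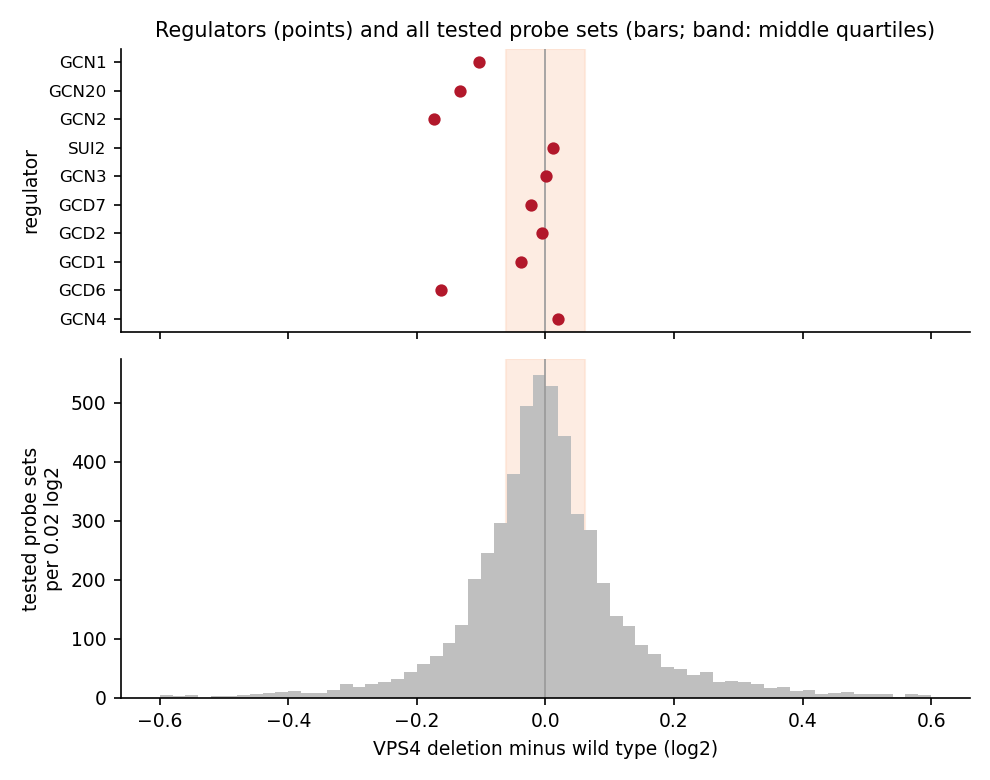
Differences between VPS4 deletion and wild type (log2, horizontal axis) of the 10 regulators (points, top) and of all tested probe sets (bars, bottom, number per 0.02 log2), with the band between the lower and upper quartile shaded and 138 probe sets beyond 0.6 not drawn. GCN1, GCN20, GCN2 and GCD6 lie left of the band and the other 6 regulators lie inside it.

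The groups of 3 regulators did not overlap. GCN1, GCN20 and GCD6 were lower in every deletion array than in every wild type array, 3 of 10, against 11.8% of all probe sets. None of the 10 was higher in every deletion array, against 13.0% of all probe sets. Without wild type replicate 3, GCD1 and GCD2 joined them, which made 5 of 10, against 25.7% of all probe sets. In that fit 4 of the 10 were lower at an unadjusted p under 0.05, against 17.2% of all probe sets. Set against the mean of its fellow wild type arrays, replicate 3 was 0.083 to 0.097 higher for GCN1, GCN2 and GCN20 and lower for the other 7 regulators.

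Other genes of the same pathway were read from lists of known functions. Of 15 genes that act beside eIF2 in initiation (the beta and gamma subunits of eIF2, eIF1, eIF1A, eIF3, eIF5, eIF5B, the eIF2 assembly factor Cdc123 and the initiator tRNA methyltransferase), 0 passed the test and 15 did not, against 4.27% of all probe sets called in either direction. At an unadjusted limma p under 0.05 there were 0 as well, against 17.4% of all probe sets, and 3 without wild type replicate 3, against 33.9%. The smallest p among them was that of FUN12, which encodes eIF5B, the factor that joins the ribosomal subunits. FUN12 stood at 12.02, 12.05 and 11.99 log2 in the deletion arrays and at 12.04, 12.08 and 12.13 in the wild type arrays, which overlapped, with a difference of −0.060 ± 0.03 (SE; limma adjusted p = 0.369). Without wild type replicate 3, FUN12 fell by 0.083 (limma adjusted p = 0.0399). GCD14, a subunit of the initiator tRNA methyltransferase chosen after its values were seen, fell by 0.11 in that fit (limma adjusted p = 0.0139), against a difference of −0.018 with all 6 arrays. In that fit 22.0% of all probe sets were called in either direction. The list's median difference was −0.0052, and −0.031 without replicate 3.

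Of 7 genes whose products are known to act on Gcn2 or on the phosphorylation of eIF2 (YIH1, GIR2, RBG2, GLC7, SIT4, TAP42 and SNF1), 0 passed and 7 did not by limma, with or without wild type replicate 3, against 4.27% of all probe sets called with all 6 arrays and 22.0% without it. TAP42, a regulator of type 2A phosphatases, had the smallest p and was the 1 gene of the list with an unadjusted p under 0.05 in either fit, against 17.4% of all probe sets with all 6 arrays and 33.9% without replicate 3. It stood at 8.86, 8.78 and 8.86 log2 in the deletion arrays and at 8.71, 8.70 and 8.74 in the wild type arrays. The groups did not overlap, and the difference was 0.12, with an interval of 0.012 to 0.23 (limma adjusted p = 0.242). The median difference of the list was 0.061, and −0.012 without wild type replicate 3.

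Of 16 genes for the turnover of Gcn4 or for the coactivators it recruits, 0 passed and 16 did not by limma, and again 0 passed without wild type replicate 3, against the same 4.27% and 22.0% of all probe sets. At an unadjusted p under 0.05 there were 0 with all 6 arrays, against 17.4% of all probe sets, and 2 without replicate 3, against 33.9%. The smallest p was that of MBF1, the coactivator that bridges Gcn4 and the TATA-binding protein. MBF1 stood at 11.74, 11.78 and 11.73 log2 in the deletion arrays and at 11.81, 11.77 and 11.82 in the wild type arrays, which overlapped. Its difference was −0.052 ± 0.02 (SE; limma adjusted p = 0.353). The list's median difference was 0.042 with all 6 arrays, and 0.060 without replicate 3.

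Genes listed as targets of Gcn4 moved in both directions. Of 42 measured targets out of 44 listed, 1 rose, 4 fell and 37 did not pass, against 2.82% of all probe sets higher and 1.46% lower. Many of these genes answer to other regulators as well, so they are not a reading of Gcn4 alone. Their median difference was −0.026, and the median size of a difference was 0.067, close to the 0.061 of all tested probe sets. The median size was also 0.067 without wild type replicate 3, against 0.073. At an unadjusted limma p under 0.05 there were 10 of the 42, against 17.4% of all probe sets, and 24 without replicate 3, against 33.9%. With all 6 arrays, 9 targets were lower in every deletion array than in every wild type array, against 11.8% of all probe sets, and 4 were higher, against 13.0%. Without replicate 3, 9 targets were lower in every deletion array, against 25.7% of all probe sets, and the higher ones were not counted.

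ARG3, the ornithine carbamoyltransferase of arginine synthesis, had the largest difference among the targets. It stood at 10.82, 10.60 and 10.85 log2 in the deletion arrays and at 11.42, 11.41 and 11.30 in the wild type arrays, which did not overlap. ARG3 fell by 0.62 ± 0.07 (SE), to 0.649 times the wild type level (limma adjusted p = 0.00764), and it passed in each of the 6 fits that left out 1 array.

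ARG8, the acetylornithine aminotransferase of the same route, stood at 11.06, 11.00 and 11.10 log2 in the deletion arrays and at 11.36, 11.29 and 11.29 in the wild type arrays. It fell by 0.26 ± 0.04 (limma adjusted p = 0.0125) but passed in 3 of the 6 fits with 1 array left out. It did not pass without deletion replicate 4, 5 or 6, with limma adjusted p up to 0.0733. CPA1, the small subunit of the arginine-specific carbamoyl phosphate synthetase, went the other way. It stood at 12.29, 12.27 and 12.26 log2 in the deletion arrays and at 12.13, 12.08 and 12.05 in the wild type arrays. It rose by 0.18 ± 0.03 (limma adjusted p = 0.0132) and passed in 2 of the 6 fits, those without wild type replicate 3 or 6, with limma adjusted p up to 0.0819 in the others. BAT1, the mitochondrial branched-chain aminotransferase, and ILV3, the dihydroxyacid dehydratase, chosen after their values were seen, fell by 0.18 and 0.15. BAT1 passed in 4 of the 6 fits, not in those without deletion replicate 5 or 6, and ILV3 in 1, that without wild type replicate 3.

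**Figure D4:**
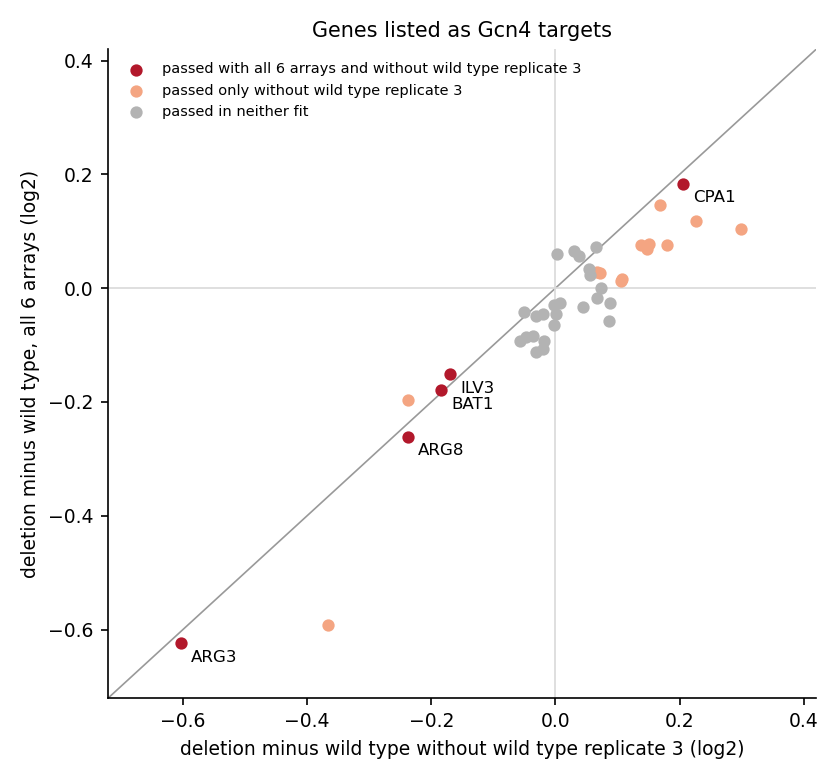
Difference between VPS4 deletion and wild type (log2) of the 42 measured genes listed as Gcn4 targets, with all 6 arrays (vertical axis) and without wild type replicate 3 (horizontal axis), where the diagonal marks equal values. ARG3, ARG8, BAT1, ILV3 and CPA1 (dark red) pass in both fits, as do all 235 probe sets called with all 6 arrays. For points right of the diagonal, replicate 3 was above the mean of the other wild type arrays.

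The balance of the targets depended on wild type replicate 3, whose median offset from the other wild type arrays over these genes was 0.13 log2. Without it 12 targets passed the test as higher and 6 as lower, against 11.9% and 10.1% of all probe sets. The median difference was 0.034. All 5 genes that passed with the 6 arrays passed there too, in the same direction. So did all 235 probe sets called with the 6 arrays, so this is not particular to the targets. The sign of the difference changed between these fits for 6 of the 42 targets, against 892 of 5498 among all tested probe sets.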

How the data were processed

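For 6 arrays the authors deposited log2 values, 1 per probe set, computed with GCRMA per the submitters' processing notes. GCRMA corrects the background by probe sequence, normalizes by quantiles and summarises each probe set; no version was stated. GCRMA pulls dim probe sets together, which shrinks small values' differences. Of 10928 probe sets, 7244 had 1 gene symbol in the platform annotation, 1 had several and 3683 had none, and the 5498 of S. cerevisiae were tested; names were updated through an R64 gene table by gene ID. Coordinates were left out since no genome build is named.

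Genotypes, taken from the sample titles, were compared with limma 3.58.1 in R 4.3.3 (lmFit, eBayes with a variance trend, two-sided, Benjamini-Hochberg over 5498 probe sets, threshold 0.05). The fit was tried on simulated data, where planted differences were larger than that of any regulator and no array stood apart. For a gene with several probe sets the brightest was used. The number of arrays limits the precision. The members and lists were chosen with earlier results of these data known. All 10 members are named. From each other list the text names up to 3 genes past the threshold with the largest differences, or the gene with the smallest p. The 3 probe sets closest to GCN4 and VPS4 are named too. Alternatives were other variance settings, a dim filter, other normalizations, all probe sets, array weights, a replicate block and each array left out. Of the 44 listed Gcn4 targets, 42 were analysed here. Python 3.11.15 and matplotlib 3.10.9 drew the figures.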

Additional observations from a re-analysis of the deposited data

How the results depend on the processing

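Each genotype had 3 arrays, which limits the precision of every difference. Leaving out each array in turn moved the probe sets called higher between 17 and 656 and those called lower between 5 and 556, with the upper ends without wild type replicate 3 and the lower ends without deletion replicate 5. The regulators called lower ran from 0 to 2, their median difference from −0.067 to −0.010, the initiation genes called lower from 0 to 2, the Gcn4 targets called higher from 0 to 12 and those called lower from 1 to 6. Differences near 0 changed sign when an array was left out: GCN3 ran from −0.014 to 0.013, GCD2 from −0.078 to 0.042, SUI2 from −0.012 to 0.027 and GCD14 from −0.11 to 0.034. With array weights 600 probe sets were higher and 436 lower, 2 regulators (GCN20 and GCD6) were lower with a median of −0.063, 7 Gcn4 targets were higher, GCN3 was −0.014 and SUI2 −0.011. The replicate block rests on the shared title numbers 4 and 6, and so on 4 arrays. The deviations of same-numbered arrays from their genotype means had correlations of 0.021 and −0.059. These do not settle whether the numbers pair the arrays, since the labels do not say what the numbers mark. With the block 478 probe sets were higher and 380 lower, 1 regulator (GCD6) was lower with a median of −0.069, 10 Gcn4 targets were higher and GCN3 was −0.015. The block left little to estimate the spread of each probe set, so these larger counts do not show a gain from pairing. Quantile normalization gave −0.00093 for GCN3 and 0.0031 for GCD2, and median centring gave −0.019 for GCN3 and −0.0074 for SUI2. Without the variance trend 0 Gcn4 targets were higher, CPA1 among those that no longer passed (limma adjusted p = 0.0510). With either normalization, with no variance trend or a robust one, with dim probe sets removed and with all probe sets tested, 0 regulators were called. The cause of these shifts was not tested. The fits that left 1 array out or used the block also rested on fewer arrays.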
